A study of Phalaenopsis aphrodite subsp. formosana with 4 samples.

Results

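miR165 and miR166 are a pair of nearly identical plant microRNAs (miRNAs), read here in 4 small RNA libraries of the moth orchid Phalaenopsis aphrodite subsp. formosana, strain M1624. Members were all sequences whose best match among known miRNAs is a miR165 or a miR166, and they numbered 1137 of the 11129 matched sequences and 117889 of the 1002362 matched reads (11.8%). Of the members, 1099 matched miR166 best (117613 reads) and 38 matched miR165 best (276 reads). The 30 sequences with 100 or more reads over the 4 libraries were read in every library and held 112426 member reads (95.4%). They are called V1 to V30 in the order of their total reads.

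All plants had been grown at 28°C for 7 to 8 months. The flower bud library (FB) was made from buds cut at month 3.5 and the stalk library (S) from flower stalks cut at months 1.5 and 2. Both came from plants of the low temperature treatment, given as 2 months at 24°C by day and 18°C by night. The low temperature-treated leaf library (CL) came from leaves of plants at those same temperatures. The untreated leaf library (NL) came from leaves of plants held at 32°C and 27°C, which keeps the plants vegetative, and leaves of both kinds were taken every 0.5 month from month 0 to month 2. Stalks and buds were present only under treatment, so organ and treatment cannot be told apart where they are set against NL. Buds were cut later than all leaves, and stalks only at months 1.5 and 2. Organ and age thus cannot be told apart in them either. Stalks cut at month 1.5 had less than 2 months of treatment. The temperature for the buds from month 2 to month 3.5 is not stated. There is 1 library for each condition and no replicate, so no test was made, and each ratio compares 2 libraries. The sources used here do not give how many plants entered a library, and small RNA reads hold no marker transcripts with which the labelled organs could be checked.

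In plants, miR165 and miR166 guide ARGONAUTE1 to the transcripts of class III homeodomain leucine zipper (HD-ZIP III) transcription factors, among them PHABULOSA, PHAVOLUTA and REVOLUTA in Arabidopsis. These factors specify the upper side of leaves and floral organs, the shoot meristem and the xylem, and the miRNA keeps them away from the lower side. ARGONAUTE10 binds the same miRNA and keeps it from acting in the meristem. Most plant miRNAs pair perfectly or almost so with the sites in their target transcripts. Bases 2 to 8 near the 5′ end are called the seed. Reads that differ from the main sequence in their ends or in a single base are called isomiRs.

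Matched reads numbered 265352 in FB, 106142 in S, 404345 in CL and 226523 in NL. Members gave 30681 of them in FB, 14078 in S, 35645 in CL and 37485 in NL. Levels are reads per 1000000 clean reads (RPM). Ratios of RPM carry an exact conditional binomial 95% interval and shares an exact Clopper-Pearson 95% interval, both in brackets. Both cover counting error alone, since there is 1 library per condition. PCR copies of a molecule are counted as separate reads, so both can be too narrow even for counting error. In whole organs, fewer cells that make a miRNA and less of it per cell cannot be told apart.

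The sequences that carry the results are printed 5′ to 3′ as the files hold them, with T for U. The first set holds the full-length form of 21 nt (V1), its 3′ shortened forms and the forms with another 5′ end. Capitals mark the seed, bases 2 to 8, which shows how a shift of the 5′ end moves it.
V1: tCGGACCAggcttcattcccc
V4: tCGGACCAggcttcattccc
V2: tCGGACCAggcttcattcc
V3: tCGGACCAggcttcattc
V6: cGGACCAGgcttcattcccc
V9: gGACCAGGcttcattcccc
V7: tTCGGACCaggcttcattccc
V17: cTCGGACCaggcttcattccc
V28: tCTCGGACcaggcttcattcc

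The second set holds the forms whose changes are described below. Here capitals mark each base that differs from V1. Positions are counted from 1 at the 5′ end of V1, so A15C means A at position 15 of V1 and C in the form. V5 is A15C, V11 is A15T and V14 is A15G, while V16 is C14T, V18 is C11A and V20 is C11G. V19 is A15T in a form that starts at position 2. V8 is C18T, V12 is C19T and V13 is C20T. V15 and V25 end in T after position 17 of V1.
V5: tcggaccaggcttcCttcccc
V11: tcggaccaggcttcTttcccc
V14: tcggaccaggcttcGttcccc
V19: cggaccaggcttcTttcccc
V16: tcggaccaggcttTattcccc
V18: tcggaccaggAttcattcccc
V20: tcggaccaggGttcattcccc
V8: tcggaccaggcttcattTccc
V12: tcggaccaggcttcattcTcc
V13: tcggaccaggcttcattccTc
V15: tcggaccaggcttcattTT
V25: tcggaccaggcttcattT

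The last pair is the sequence that matches Arabidopsis miR165a in full (T17C against V1) and V27, the most abundant sequence assigned to miR165, with capitals again at the bases that differ from V1.
miR165a form: tcggaccaggcttcatCcccc
V27: tcggaccaggcttcCCCcc

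Together the members stood at 4857 RPM in FB, 1756 RPM in S, 4818 RPM in CL and 5205 RPM in NL. The order of the levels was thus NL, FB, CL and S in RPM, while as a share of matched reads it was NL, S, FB and CL. In RPM the neighbours FB and CL did not differ beyond counting error, with a ratio of 1.008 (0.993 to 1.02). Treated leaves stood at 0.926 (0.912 to 0.939) times the level of untreated leaves. Stalks stood at 0.365 (0.358 to 0.372) times the level of treated leaves, and FB at 2.77 (2.71 to 2.82) times the level of S, but both directions turn when levels are set against all matched reads (1.505 for S over CL and 0.872 for FB over S).

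The low RPM of the stalk library was shared by most families. Matched reads were 4.2% of clean reads in FB, 1.32% in S, 5.46% in CL and 3.15% in NL, and members took 11.6% (11.4 to 11.7) of the matched reads in FB, 13.3% (13.1 to 13.5) in S, 8.82% (8.73 to 8.90) in CL and 16.5% (16.4 to 16.7) in NL. Among other families that reached 100 reads in the pair of libraries, 14 of 23 had a higher S over CL ratio than the members together, with a median of 0.472. For FB over S, 12 of 24 were above and 12 below, with a median of 2.505. Between leaves 19 of 23 other families had a higher CL over NL ratio than the members, and their median was 1.43. For FB over CL it was 11 of 26, with a median of 0.9302. Taking all matched reads in place of clean reads shifts every log2 ratio by -0.80 for CL over NL, 2.04 for S over CL, 0.38 for FB over CL and -1.66 for FB over S.

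The full-length form V1 was the most abundant member in each library. It stood at 2482 RPM in FB, 897.1 RPM in S, 3123 RPM in CL and 3222 RPM in NL, from 15678 reads in FB, 7190 in S, 23109 in CL and 23205 in NL. The CL over NL ratio of V1 was 0.969 (0.952 to 0.987), that of S over CL 0.287 (0.280 to 0.295) and that of FB over CL 0.795 (0.779 to 0.811). V1 held 51.1% (50.5 to 51.7) of member reads in FB, 51.1% (50.2 to 51.9) in S, 64.8% (64.3 to 65.3) in CL and 61.9% (61.4 to 62.4) in NL. FB and S thus held larger shares of isomiRs than both leaf libraries, and these shares do not depend on the denominator of the level.

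**Figure D1:**
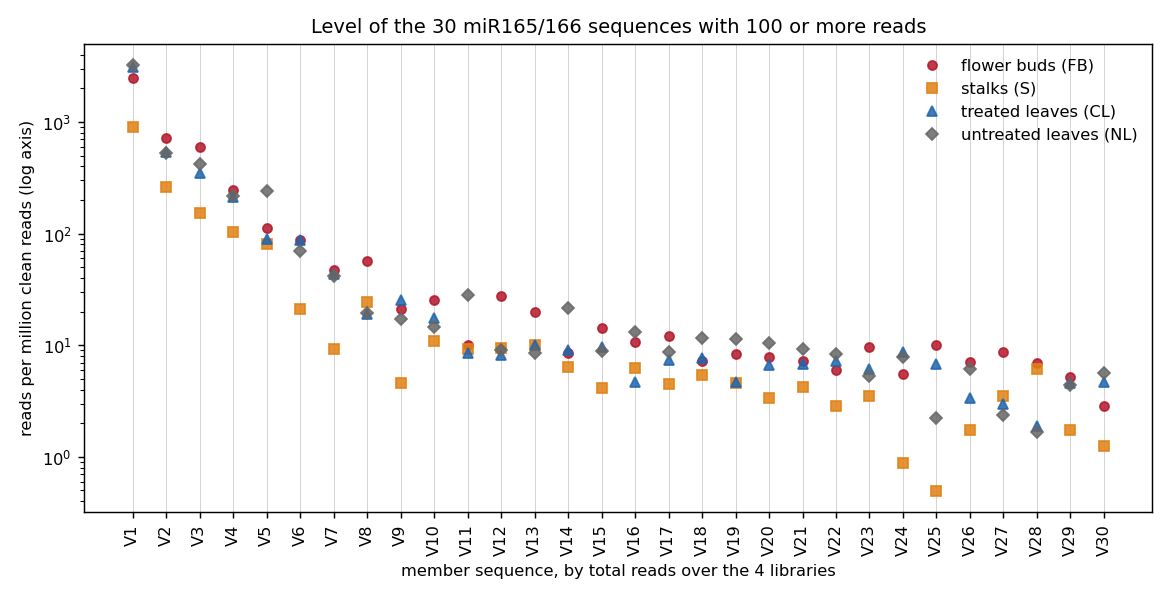
Level in reads per 1000000 clean reads (log axis) of each of the 30 sequences with 100 or more reads, in order of total reads, with 1 point per library (FB, S, CL and NL). V1 stands at 2482 RPM in FB, 897.1 RPM in S, 3123 RPM in CL and 3222 RPM in NL, and the S point is the lowest for 23 of the 30 forms, an order that depends on scaling by clean reads.

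Of the 30 forms, 17 were highest in FB, 11 in NL, 2 in CL and 0 in S on the RPM scale. The lowest library was S for 23 forms, CL for 4, NL for 3 and FB for 0. The other 29 forms ranged in FB from 0.115 to 28.8 reads per 100 reads of V1, with a median of 0.408. The medians were 0.598 in S, 0.260 in CL and 0.323 in NL. V30, the least abundant form inside the limit, had 104 reads, and the most abundant member outside it had 99 reads.

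The forms that lack 1 to 3 bases at the 3′ end and are otherwise identical to V1 were the largest class of isomiRs. V2, of 19 nt, stood at 714.6 RPM in FB, 263.8 RPM in S, 534.1 RPM in CL and 529.3 RPM in NL. V3, of 18 nt, stood at 600.1 RPM in FB, 154.3 RPM in S, 349.0 RPM in CL and 422.0 RPM in NL. V4, of 20 nt, stood at 246.6 RPM in FB, 104.3 RPM in S, 214.6 RPM in CL and 218.0 RPM in NL. All 3 were highest in FB, where V1 was not. V4 is also identical to a known maize sequence, zma-miR166h, and a gene of its own and a shortened V1 cannot be told apart here.

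The FB over CL ratio was 1.15 (1.07 to 1.23) for V4, 1.34 (1.28 to 1.40) for V2 and 1.72 (1.64 to 1.81) for V3, against 0.795 for V1. It was thus higher for each form that lacked 1 more base. Between leaves the CL over NL ratios were 0.985 (0.918 to 1.06) for V4, 1.009 (0.965 to 1.05) for V2 and 0.827 (0.784 to 0.872) for V3. For S over CL they were 0.486 for V4, 0.494 for V2 and 0.442 for V3, all above the 0.287 of V1.

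For each 100 reads of V1 there were 62.9 shortened reads in FB, 58.2 in S, 35.1 in CL and 36.3 in NL. As a share of shortened and full-length reads together this is 38.6% (38.0 to 39.2) in FB, 36.8% (35.9 to 37.7) in S, 26.0% (25.5 to 26.5) in CL and 26.6% (26.1 to 27.1) in NL. The intervals of FB and S lie above those of both leaf libraries, and the intervals of FB and S do not overlap.

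In most other families such shortening was rare. Counted in the same way for the most abundant sequence of each family, the median was 1.70 shortened reads per 100 in FB (13 families), 1.03 in S (13), 1.17 in CL (12) and 1.39 in NL (13). miR159, which cleaves transcripts of GAMYB-like factors, had 83.4 in FB, 65.2 in S, 47.5 in CL and 40.5 in NL. miR894 had 85.3 in FB, 46.0 in S, 36.8 in CL and 53.4 in NL. These 2 families were also highest in FB. At a lower level, miR167 had more in FB (12.5) and S (17.3) than in CL (6.94) and NL (6.93). miR168 ran the other way, with 3.24 in FB, 4.78 in S, 5.75 in CL and 7.93 in NL. The extract protocol states a gel cut of 20 to 25 nt, so V2 and V3 lie below the range that was cut out. The study's read totals show more reads discarded as too short in FB than in the other libraries, and the part of either in the shortened forms was not tested.

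**Figure D2:**
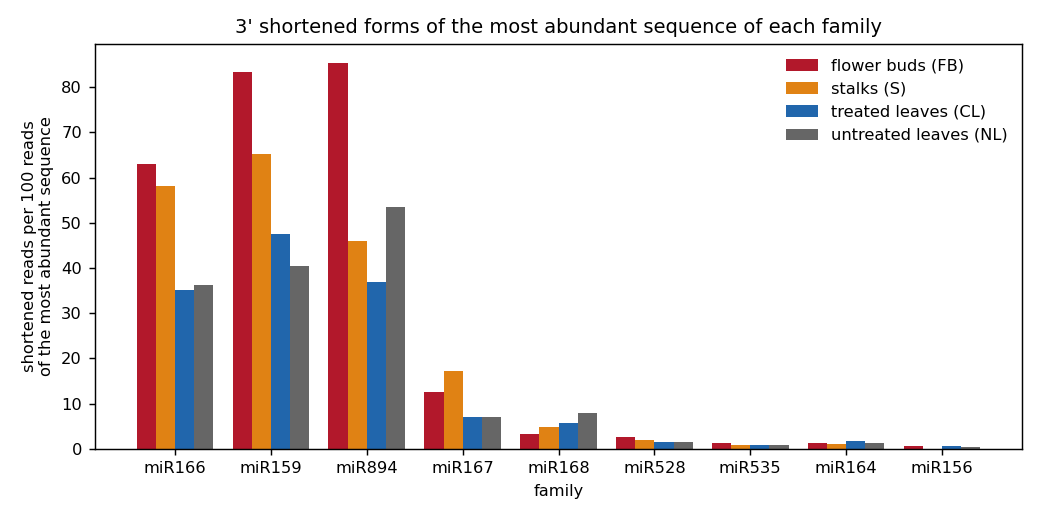
Reads of 3′ shortened forms per 100 reads of the most abundant sequence (linear axis from 0) in miR166 and 8 other families, with 1 bar per library (FB, S, CL and NL). miR166 has 62.9 in FB, 58.2 in S, 35.1 in CL and 36.3 in NL, and only miR159 and miR894 among the families drawn come near or above it.

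Over all members, reads of 21 nt held 60.3% (59.8 to 60.9) in FB, 64.0% (63.2 to 64.8) in S, 71.6% (71.1 to 72.0) in CL and 72.4% (71.9 to 72.8) in NL. At 21 nt the reads of other families ran the opposite way, with 86.9% in FB, 83.0% in S, 75.8% in CL and 66.0% in NL. They held 2.475% at 22 nt in FB, 2.67% in S, 13.6% in CL and 22.3% in NL. At 19 nt members held 16.97% in FB, 16.8% in S, 12.6% in CL and 11.5% in NL, whereas other families held 1.30% of their reads there in FB, 1.44% in S, 0.913% in CL and 1.29% in NL. At 18 nt members held 13.9% in FB, 9.97% in S, 8.17% in CL and 8.89% in NL. Other families were highest in FB there too, with 1.59% in FB, 1.24% in S, 0.808% in CL and 1.13% in NL. Reads of 22 nt were at most 0.410% of member reads in each library.

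**Figure D3:**
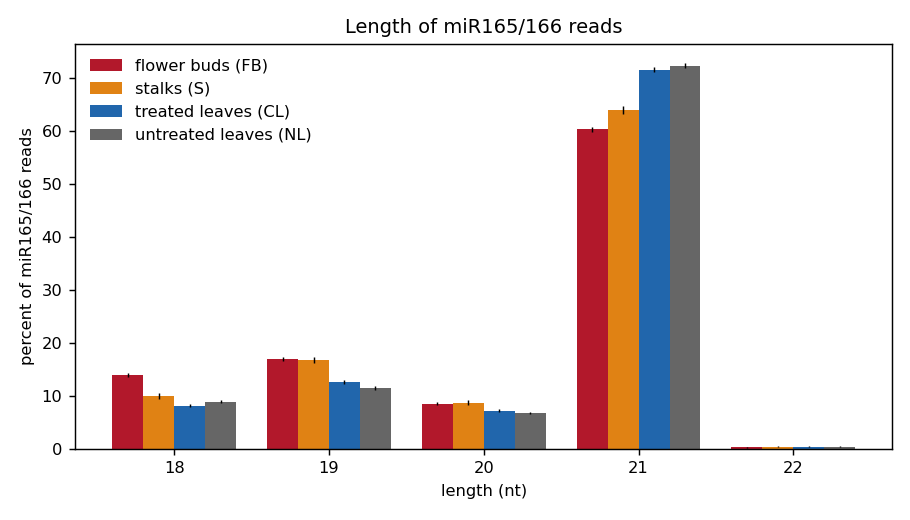
Percent of miR165 and miR166 reads (linear axis from 0) at each length from 18 to 22 nt, with 1 bar per library (FB, S, CL and NL) and exact 95% binomial intervals for counting error. The 21 nt bars stand at 60.3% in FB, 64.0% in S, 71.6% in CL and 72.4% in NL, and the 18 nt bar is tallest in FB at 13.9%.

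Of the reads with a single changed base, those changed at position 15 made up 39.5% in FB, 52.8% in S, 44.2% in CL and 65.6% in NL. V5, the A15C form, stood at 113.2 RPM in FB, 80.97 RPM in S, 89.47 RPM in CL and 238.6 RPM in NL, from 715 reads in FB, 649 in S, 662 in CL and 1718 in NL. It was the only form with 1000 or more reads that lay past the 1.5-fold limit between the leaf libraries, with a CL over NL ratio of 0.375 (0.342 to 0.411). V11, the A15T form, had 63 reads in FB, 74 in S, 63 in CL and 204 in NL, and a CL over NL ratio of 0.301 (0.223 to 0.401). V14, the A15G form, had 54 reads in FB, 51 in S, 67 in CL and 154 in NL, and a ratio of 0.424 (0.313 to 0.568). All 3 possible changes of this base were thus highest in NL.

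Taken as reads with any base but A at position 15 of the 21 nt form, there were 832 in FB, 774 in S, 792 in CL and 2076 in NL. Per 100 reads of V1 this is 5.31 in FB, 10.8 in S, 3.43 in CL and 8.95 in NL. Set against V1 in the same library, the CL over NL ratio of these reads was 0.383 (0.353 to 0.416), S over CL 3.14 (2.84 to 3.47) and FB over CL 1.55 (1.40 to 1.71). In the 4 to 8 other families with enough reads, the median at position 15 was 0.235 per 100 in FB, 0.270 in S, 0.248 in CL and 0.332 in NL. The highest of them was 0.673 in FB, 0.527 in S, 0.596 in CL and 0.485 in NL. Position 15 was singled out because miR166 peaks there, and other families had peaks of this size or larger at other positions. They include miR535 at its position 7, with 5.97 per 100 in CL and 11.2 in NL, miR172 at its position 20, with 8.23 in FB and 5.73 in S, and miR168 at its last base, with 75.8 in CL and 124.2 in NL.

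Changes at position 15 were more frequent in the 20 and 21 nt forms than in the 18 and 19 nt forms. In the 20 nt form there were 3.47 such reads per 100 unchanged reads in FB, 4.90 in S, 3.71 in CL and 5.22 in NL. In the 19 nt form there were 1.11 in FB, 0.662 in S, 0.734 in CL and 1.26 in NL, and in the 18 nt form 1.08 in FB, 0.889 in S, 0.9295 in CL and 0.921 in NL. The difference between CL and NL was thus wide in the 21 nt form and near 0 in the 18 nt form. The latter rests on only 24 changed reads in CL and 28 in NL. NL still stood above CL in the 20 nt form (82 reads in NL, 59 in CL) and in the 19 nt form (48 in NL, 29 in CL). Whether these reads stem from other MIR166 genes, from editing or from errors in copying and sequencing was not tested.

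Position 14 and position 11 held smaller peaks, and some of their forms were lower in CL than in NL. V16 (C14T) had 68 reads in FB, 50 in S, 35 in CL and 94 in NL, with a CL over NL ratio of 0.362 (0.239 to 0.539). V18 (C11A) had 46 reads in FB, 43 in S, 57 in CL and 84 in NL, with a ratio of 0.660 (0.463 to 0.936). V20 (C11G) had 50 reads in FB, 27 in S, 49 in CL and 75 in NL, with a ratio of 0.636 (0.434 to 0.924). V22 (C11T) had 38 reads in FB, 23 in S, 53 in CL and 60 in NL and was not past the limit, with a ratio of 0.860 (0.583 to 1.265). C14A, below 100 reads in all, had 7 reads in FB, 7 in S, 24 in CL and 22 in NL, so a lower level in CL did not hold for each change at these positions. V19, which joins A15T to a start at position 2, had 53 reads in FB, 37 in S, 35 in CL and 82 in NL, with a ratio of 0.415 (0.271 to 0.624). The intervals of V18 and V20 reach past 0.667 towards 1.

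Changes at positions 18 to 20 had another pattern. V8 (C18T) stood at 57.1 RPM in FB, 24.6 RPM in S, 18.9 RPM in CL and 19.6 RPM in NL, with an FB over CL ratio of 3.02 (2.48 to 3.70). V12 (C19T) had 173 reads in FB, 76 in S, 60 in CL and 65 in NL, and a ratio of 3.38 (2.50 to 4.61). V13 (C20T) had 126 reads in FB, 80 in S, 75 in CL and 61 in NL, and a ratio of 1.97 (1.47 to 2.65). V13 is also identical to a known rice sequence, osa-miR166g, and a gene of its own and a changed V1 cannot be told apart here. These forms differed little between the leaf libraries, and V8 can equally be read as V1 with 1 more T and 1 fewer C.

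All changes at positions 18 to 20 together gave 4.38 reads per 100 reads of V1 in FB, 5.09 in S, 1.33 in CL and 1.28 in NL. Set against V1, the ratio was 3.28 (2.87 to 3.77) for FB over CL, 3.82 (3.27 to 4.46) for S over CL and 1.04 (0.882 to 1.22) for CL over NL. Changes at the remaining positions were 3.76 per 100 in FB, 4.53 in S, 3.003 in CL and 3.40 in NL, so they varied less. The CL over NL ratio against V1 was 0.383 at position 15, 1.04 at positions 18 to 20 and 0.882 (0.796 to 0.978) at the remaining positions.

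C-to-T changes elsewhere in the sequence moved in the same direction. At the 5 other C bases of V1 before position 18 they averaged 0.269 reads per 100 and base in FB, 0.300 in S, 0.124 in CL and 0.168 in NL, against 1.40 in FB, 1.64 in S, 0.397 in CL and 0.383 in NL at the 3 C bases from 18 to 20. In other families the median over C bases was 0.115 in FB (28 bases), 0.0914 in S (13), 0.0703 in CL (17) and 0.0604 in NL (17). The highest single C base of other families had 0.464 in FB, 0.272 in S, 0.858 in CL and 0.8015 in NL. In both leaf libraries it thus lay above the mean of positions 18 to 20. The part of such C-to-T changes in the counts of V8, V12 and V13 was not tested.

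**Figure D4:**
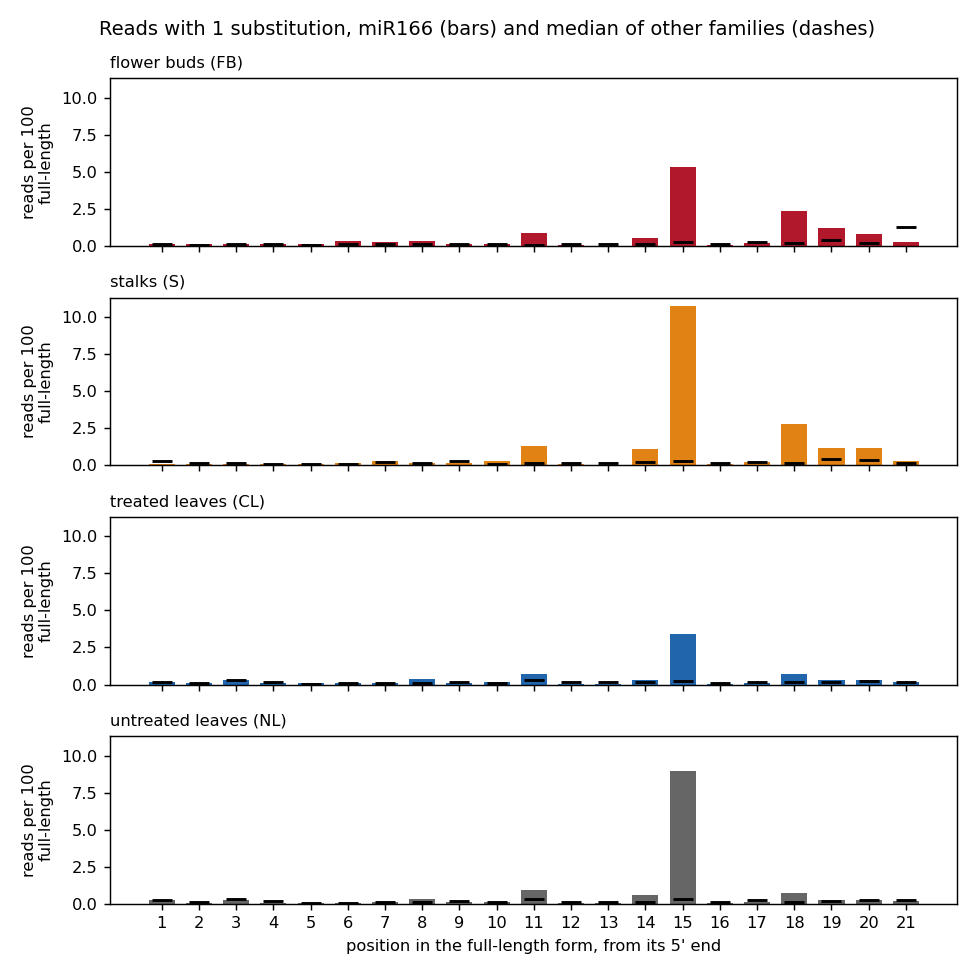
Reads with 1 substitution per 100 reads of the full-length form at each of its 21 positions (bars, linear axes from 0), with FB, S, CL and NL from top to bottom, and the median of other families (dashes). Position 15 stands at 5.31 in FB, 10.8 in S, 3.43 in CL and 8.95 in NL, and positions 18 to 20 stand above the dashes most clearly in FB and S.

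Each form was then counted against a limit of 1.5-fold in RPM (above 1.5 or below 0.667), among sequences with at least 100 reads over the 2 libraries. For CL over NL, 0 of 23 members were higher and 7 were lower (30.4%), whereas 40.9% of all 154 matched sequences tested were higher and 13% lower. The 7 were V5, V11, V14, V16, V18, V19 and V20, each with a changed base. The median ratio was 0.898 over the members and 1.35 over all sequences. Set against all matched reads, 19 of the 23 members were lower.

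For S over CL, 0 of 16 members were higher and 9 were lower (56.2%), with 7.19% of all 139 sequences higher and 77.7% lower, and medians of 0.559 for members and 0.220 for all. Against all matched reads the count turns to 12 higher and 0 lower. The 9 were V1, V2, V3, V4, V6, V7, V9, V10 and V15, and none of them has a changed base before its 3′ tail. The remaining 7 (V5, V8, V11, V12, V13, V14 and V18) all carry 1 changed base and lay between 0.696 (V18) and 1.299 (V8). This split did not hold among the forms below the minimum of reads. There the changed forms V20 (0.509), V21 (0.628), V22 (0.401), V24 (0.0994) and V26 (0.517) were lower, on 39 to 84 reads. The changed forms V16 (1.319), V19 (0.976) and V27 (1.175) were not, and V28, with no changed base, was higher (3.23).

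For FB over CL, 8 of 21 members were higher (38.1%) and 1 was lower (4.76%), with 23% of all sequences tested higher and 33.3% lower, and medians of 1.34 for members and 0.937 for all. The 8 were V3, V8, V12, V13, V15, V16, V17 and V23, and the 1 lower was V24 (A8C, the only form of the 30 with a change in the seed), at 0.631 (0.406 to 0.966). V15 lay at the limit, with 1.501 (1.09 to 2.08). For FB over S, 14 of 17 members were higher (82.4%) and 0 lower, with 71.9% of all 121 sequences higher and 8.26% lower, and medians of 2.68 for members and 3.50 for all. The 3 that were not were V5 at 1.40, V14 at 1.34 and V11 at 1.08, which are the changes of position 15 in the 21 nt form. Position 15 did not mark the exceptions among the forms below the minimum of reads. There V19 (1.82), V21 (1.72) and V26 (4.08), with position 15 changed and other ends, were higher. V18 (1.357 on 89 reads) and V28 (1.139 on 93 reads) were not, and position 15 is unchanged in both. Against all matched reads only 1 member was higher in FB than in S and 5 were lower. FB over CL and S over CL share the CL library, and so do CL over NL and S over CL.

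**Figure D5:**
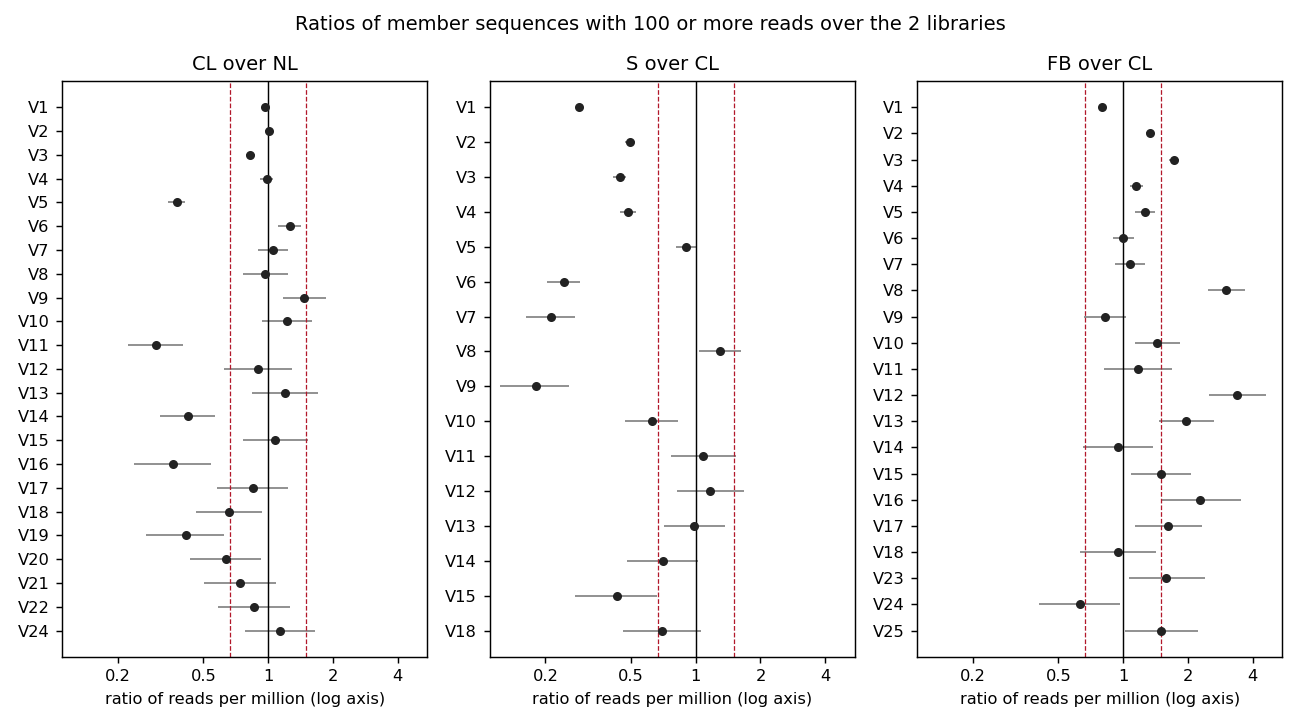
Ratio of RPM (log axis) with exact 95% intervals for counting error for each member with 100 or more reads over the 2 libraries, for CL over NL (23 forms), S over CL (16) and FB over CL (21). The dashed lines mark 1.5-fold, and V5 (0.375) and V11 (0.301) lie far left for CL over NL while V8 (3.02) and V12 (3.38) lie far right for FB over CL. All 16 points for S over CL move right by 2.04 on the log2 scale when set against all matched reads.

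By seed, the 30 forms fell into 6 groups. The seed CGGACCA of V1 is shared by 20 of them, GGACCAG by V6, V10, V19 and V23, and TCGGACC by V7, V17 and V30, while V9 (GACCAGG), V24 (CGGACCC) and V28 (CTCGGAC) stand alone. Over all members the first seed held 92.8% of reads in FB, 94.2% in S, 93.8% in CL and 94.6% in NL. None of the changes at positions 11, 14, 15 or 18 to 20 touches the seed. Their effect on target pairing, which in plants extends beyond the seed, was not tested.

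The 5′ end was more even than the 3′ end. Reads starting at position 1 held 92.0% (91.7 to 92.3) in FB, 92.9% (92.5 to 93.4) in S, 94.0% (93.7 to 94.2) in CL and 94.2% (93.9 to 94.4) in NL. Starts at position 2 held 3.21% in FB, 2.62% in S, 2.68% in CL and 2.24% in NL. V6, the main form that starts there, stood at 87.4 RPM in FB, 21.2 RPM in S, 87.2 RPM in CL and 69.4 RPM in NL, with a CL over NL ratio of 1.26 (1.12 to 1.41).

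Forms with 1 more base at the 5′ end held 1.58% of member reads in FB, 1.09% in S, 1.41% in CL and 1.35% in NL. V7, which adds T, had 296 reads in FB, 74 in S, 322 in CL and 298 in NL. Forms with 2 more bases were rarer, with 0.192% (0.146 to 0.248) in FB, 0.405% (0.307 to 0.524) in S, 0.101% (0.0707 to 0.140) in CL and 0.0800% (0.0540 to 0.114) in NL. The main one, V28, had 44 reads in FB, 49 in S, 14 in CL and 12 in NL. As a share of member reads this start was highest in S, and the S over CL ratio of V28 was 3.23 (1.76 to 6.34) at 63 reads over the 2 libraries, under the minimum of 100 for a count.

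Reads ending in one or more T that V1 does not have numbered 336 in FB, 108 in S, 235 in CL and 198 in NL. They were 1.095% (0.982 to 1.22) of member reads in FB, 0.767% (0.630 to 0.926) in S, 0.659% (0.578 to 0.749) in CL and 0.528% (0.457 to 0.607) in NL. In Arabidopsis, miRNAs that lack the 3′ methyl group added by HEN1 are shortened and given tails of U. V15, with 2 T after position 17, had 91 reads in FB, 33 in S, 71 in CL and 64 in NL. V25, with 1 T after the same base, had 64 reads in FB, 4 in S, 50 in CL and 16 in NL, a CL over NL ratio of 3.04 (1.70 to 5.72) on 66 reads. V29 (C21T), also of this class, is identical to a known rice sequence, osa-miR166m. V15 and V25 match the known ptc-miR166n and sbi-miR166k best, with no mismatch but 2 gaps each. Genes of their own and T added to V1 cannot be told apart here.

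miR165 was a minor part. Sequences assigned to it had 111 reads in FB, 55 in S, 49 in CL and 61 in NL, or 17.6 RPM in FB, 6.86 RPM in S, 6.62 RPM in CL and 8.47 RPM in NL. They were 0.362% (0.298 to 0.435) of member reads in FB, 0.391% (0.294 to 0.508) in S, 0.138% (0.102 to 0.182) in CL and 0.163% (0.125 to 0.209) in NL. The FB over CL ratio was 2.65 (1.88 to 3.79), against 1.006 (0.991 to 1.02) for miR166 alone, and CL over NL was 0.782 (0.526 to 1.16).

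The sequence identical to Arabidopsis miR165a had only 28 reads in FB, 17 in S, 16 in CL and 22 in NL. V27, the most abundant sequence assigned to miR165, had 55 reads in FB, 28 in S, 22 in CL and 17 in NL, and its FB over CL ratio was 2.93 (1.76 to 5.04) on 77 reads. V27 needs 2 gaps to match miR165a and differs from V1 at 3 bases (A15C, T16C and T17C). Reads of either kind differ from miR166 at so few bases that miR165 genes and changed miR166 reads cannot be told apart here.

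Most members matched 1 of 2 known names best, the Arabidopsis ath-miR166a with 68.9% of reads and the maize zma-miR166h with 27.9%, and 19 names were used in all. The split follows the ends of the reads, since V1 matches the first and V2, V3 and V4 match the second, so the names do not separate genes. No member had a best match named as the passenger strand of the duplex. Passenger reads that match best under another name are not members, so the level of that strand is not described here.

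By the distance between their centred log2 RPM over the 4 libraries, the families whose pattern was nearest to that of miR165 and miR166 together, of 34 families, were miR390 (0.770), miR2915 (0.781) and miR164 (0.809). miR390, which starts the TAS3 small RNAs that act on auxin response factors in leaf polarity, stood at 41.6 RPM in FB, 29.8 RPM in S, 45.7 RPM in CL and 51.0 RPM in NL. miR2915, for which no role is given here, stood at 13.3 RPM in FB, 6.24 RPM in S, 14.3 RPM in CL and 8.89 RPM in NL. miR164, which cleaves transcripts of the NAC factors that set organ boundaries, stood at 808.3 RPM in FB, 153.5 RPM in S, 867.0 RPM in CL and 712.8 RPM in NL. With 4 libraries this is a description of likeness only.

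Of 6 families that act on polarity, auxin response and meristems (miR160, miR164, miR167, miR319, miR390 and miR394), 3 had enough reads for CL over NL. None lay past the limit, and their median ratio was 1.11, where 45.8% of all 24 families were higher and 4.17% lower. For S over CL all 3 tested were lower, where 12.5% of families were higher and 75.0% lower. Against all matched reads miR164 (0.730) and miR167 (0.365) stay below 1 and miR390 turns to 2.69. For FB over CL 2 of 5 tested were higher and 1 lower, where 29.6% of 27 families were higher and 22.2% lower. For FB over S 4 of 5 were higher and 0 lower, where 64.0% of 25 families were higher and 4% lower. Against all matched reads miR167 (0.505) and miR319 (0.580) turn to lower, while miR160 and miR164 do not turn.

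Among these, miR167, which cleaves transcripts of the auxin response factors ARF6 and ARF8, had an FB over CL ratio of 0.142 (0.138 to 0.146). miR319, which acts on TCP factors of leaf growth, had 103 reads in FB, 71 in S, 14 in CL and 4 in NL, with an FB over CL ratio of 8.62 (4.91 to 16.3). miR160, which acts on ARF10, ARF16 and ARF17 in Arabidopsis, had 94 reads in FB, 9 in S, 33 in CL and 16 in NL, with a ratio of 3.34 (2.22 to 5.12). The ratio for miR165 and miR166 together, 1.008, thus stood between those of families of related roles.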

How the data were processed

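Small RNA was size-selected on a gel and sequenced by the authors, who trimmed adaptors, discarded contaminants, poor reads and those under 18 nt, merged identical reads and compared each distinct sequence with miRBase 15 by BLAST (version not given in the sources used here). In the deposited tables, the count is how many reads a matching sequence had. The deposited tables also hold lengths, best match, mismatches and gaps (sums of up to 5 were present and kept), and other alignment values and a score, of which the score entered no result.

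Counts were divided by the study's totals of clean reads and multiplied by 1000000 (RPM). Sequences were joined over the 4 libraries and sorted into isomiR classes against the most abundant member. Python 3.11.15, pandas 2.3.3, NumPy 2.4.6, SciPy 1.17.1 and matplotlib 3.10.9 were used. Ratios have exact conditional binomial intervals, and shares have exact Clopper-Pearson intervals. The ratio intervals were run on simulated independent counts, the case they assume, which says nothing of PCR copies or spread between plants. With 1 library per condition no test was made, and a count of 0 allows up to 3 reads. A form or family was counted as higher or lower past 1.5-fold when it had at least 100 reads over the 2 libraries.

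Members with at least 1000 reads, those past the limit between the leaf libraries and the main miR165 sequences were described in full. The other forms printed with values were chosen after their values were seen. The members and lists were chosen with earlier results of these data known. The 60 planned and 7 added alternatives changed the denominator, the fold limit, the minimum of reads, the mismatches and the lengths allowed. They also left out the most abundant sequence or changed how the passenger strand was assigned.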

Additional observations from a re-analysis of the deposited data

How the results depend on the processing

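The level of miR165 and miR166 together depended on the denominator. Against all matched reads its ratio was 0.533 for CL over NL, 1.505 for S over CL (reversed), 1.31 for FB over CL and 0.872 for FB over S (reversed). Against matched reads without miR528 these were 0.709, 0.983, 1.36 and 1.39 in the same order, against high-quality reads 0.889, 0.378, 0.902 and 2.39, and by the median ratio of 45 abundant sequences 0.785 (CL over NL), 0.867 (S over CL), 1.03 (FB over CL) and 1.19 (FB over S). With perfect matches alone the ratio was 0.971 for CL over NL, 0.303 for S over CL and 0.823 for FB over CL. With at most 1 mismatch or gap it was 0.351 for S over CL, 0.926 for FB over CL and 2.64 for FB over S, and with 20 to 22 nt alone 0.337, 0.880 and 2.61. Without V1 it was 0.854 for CL over NL, 0.507 for S over CL and 1.402 for FB over CL. The cause was not tested, other than that each setting changes the reads that enter. The count of forms past the limit (higher, lower) moved as follows. With at least 20 reads it was 6 and 18 for CL over NL, 2 and 31 for S over CL, 27 and 12 for FB over CL, and 40 and 1 for FB over S. With at least 1000 reads it was 0 and 1 for CL over NL, 0 and 4 for S over CL, 1 and 0 for FB over CL, and 4 and 0 for FB over S. Against all matched reads it was 0 and 19 for CL over NL, 12 and 0 for S over CL, 13 and 0 for FB over CL, and 1 and 5 for FB over S. By the median ratio it was 0 and 8 for CL over NL, 7 and 3 for S over CL, 9 and 1 for FB over CL, and 4 and 3 for FB over S. At a limit of 2-fold it was 0 and 5 for CL over NL, 0 and 8 for S over CL, 3 and 0 for FB over CL, and 12 and 0 for FB over S. Against reads of V1, a denominator chosen after the values were seen, it was 1 and 6 for CL over NL, 11 and 1 for S over CL, 12 and 0 for FB over CL, and 2 and 4 for FB over S. The share of 21 nt reads was 72.2% in FB, 72.7% in S, 79.5% in CL and 81.1% in NL with at most 1 mismatch or gap, and 18.9% in FB, 26.5% in S, 19.2% in CL and 27.5% in NL without V1. Reads of position 15 in the shorter forms and in other families, and the ratios of the related families against all matched reads, were also added after the values were seen. No paired analysis was possible because there is 1 library per group. With no replicate, no ratio can be set against the spread between plants, and forms with fewer than 100 reads over a pair of libraries have wide intervals.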

Other observations

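Besides the classes above, members of 23 to 27 nt were rare, with 12 reads in FB, 14 in S, 23 in CL and 21 in NL, and no single sequence among them had more than 4 reads in a library. An 18 nt form that lacks internal bases of V1 had 22 reads in FB, 9 in S, 11 in CL and 21 in NL. Of all 1137 members, 622 (54.7%) had a single read over the 4 libraries, and the 185 found in every library held 98.4% of member reads. The 1107 members below 100 reads held 5463 reads together.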
